A study of Mus musculus with 13 samples.

Results

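The proteasome genes of mouse cortical neurons were followed through 24 h of exposure to rotenone, a plant-derived pesticide that blocks mitochondrial complex I. Members were all probes of the array whose description carries a bracketed symbol that starts with Psma, Psmb, Psmc, Psmd, Psme, Psmf or Psmg. This took in 59 of 24613 probes with a signal, for 42 genes, of which 41 encode proteasome subunits or their helpers. The remaining gene, Psmc3ip, shares the prefix but is a cofactor of meiotic recombination, and it is given apart. No description carried a Psmg symbol. After probes that were not above background on at least 3 arrays had been left out, 54 member probes for 41 genes remained among 11052 genes tested. Psma6 was not above background on any array and was not tested, so 40 proteasome genes entered the comparisons.

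The samples were primary neocortical cultures made from fetal Swiss albino mice at gestation day 15 to 16 and used at culture day 5. There were 4 vehicle control samples, for which no collection time is given, and 3 samples each with 10 nM rotenone for 8 h, 15 h and 24 h, the drug having been added in NeuroBasal medium from a stock in DMSO. Total RNA was measured on Illumina mouse bead arrays with 1 biotin-labelled sample per array. The labels do not say that replicates came from separate cultures or litters, so p-values measure the spread between these samples, and the 3 or 4 arrays of a group limit the precision.

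The proteasome is the protease that degrades proteins tagged with ubiquitin chains. Its 20S core is a barrel of stacked rings, with alpha subunits (Psma genes) outside and beta subunits (Psmb genes) inside. Psmb6, Psmb7 and Psmb5 supply the catalytic sites, and Psmb9, Psmb10 and Psmb8 are their inducible counterparts, known from immune cells and interferon responses. The 19S particle caps the core. Its ring of ATPases (Psmc genes) unfolds substrates, and its other subunits (Psmd genes) bind ubiquitin chains, remove them and form the lid. PA28 (Psme1 with Psme2, or Psme3 alone in the nucleus) and PA200 (Psme4) are other caps that open the core, and PI31 (Psmf1) was first described as an inhibitor of the core. Proteasome genes are known to rise together when proteasome activity is blocked, through the transcription factor Nfe2l1 and its small Maf partners, which bind antioxidant response elements in their promoters. Neurons depend on the system for turnover of synaptic and damaged proteins.

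Promoters of 4 members are shown because the factors that act on such elements were among the genes measured. RefSeq's promoter table for GRCm38.p6 held the 250 bases before the start of 36 member genes. The element was searched as TGACNNNGC on both strands, and matches are in capitals. Psmb5 and Psmb6 are constitutive catalytic genes with a match, Psmb10 is the inducible catalytic gene that was called lower at 24 h, and Psme3 had the largest difference of all members at 15 h. The last pair holds no match, and no capitals.
Psmb5 promoter (chr14:54617996-54618245, minus strand): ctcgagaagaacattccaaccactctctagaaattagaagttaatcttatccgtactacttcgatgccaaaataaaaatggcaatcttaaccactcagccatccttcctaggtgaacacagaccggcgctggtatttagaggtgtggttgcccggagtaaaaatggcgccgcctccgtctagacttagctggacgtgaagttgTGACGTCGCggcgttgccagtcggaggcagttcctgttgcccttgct
Psmb6 promoter (chr11:70525107-70525356, plus strand): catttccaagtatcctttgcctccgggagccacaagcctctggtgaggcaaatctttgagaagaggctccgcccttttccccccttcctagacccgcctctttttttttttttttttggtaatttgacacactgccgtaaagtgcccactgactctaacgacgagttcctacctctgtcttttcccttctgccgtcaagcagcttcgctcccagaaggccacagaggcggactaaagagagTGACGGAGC
Psmb10 promoter (chr8:105938393-105938642, minus strand): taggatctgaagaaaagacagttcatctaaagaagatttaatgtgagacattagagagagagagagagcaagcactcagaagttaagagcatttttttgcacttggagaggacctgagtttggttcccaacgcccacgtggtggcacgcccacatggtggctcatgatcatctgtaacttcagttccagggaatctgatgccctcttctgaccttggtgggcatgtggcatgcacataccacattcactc
Psme3 promoter (chr11:101315963-101316212, plus strand): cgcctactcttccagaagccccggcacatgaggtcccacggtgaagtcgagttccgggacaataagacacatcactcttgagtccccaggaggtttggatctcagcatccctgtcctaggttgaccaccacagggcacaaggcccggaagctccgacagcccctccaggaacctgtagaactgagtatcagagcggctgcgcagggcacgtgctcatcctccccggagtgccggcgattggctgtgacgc
A match was present for 5 of 36 member genes (13.9%), against 11.5% of 27025 genes in the table. The 5 genes were Psmb5, Psmb6, Psmc6, Psmd12 and Psmd9. In Psmb5 the match began 47 bases before the start in the promoter table, and in Psmb6 it began 9 bases before that start. RefSeq's gene table puts the start of Psmb6 at 70525324, within the window shown, and by that start the match lies inside the gene. A match is a description of these letters and not a site that was shown to be bound.

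Levels below are log2 normalized signals after background correction and quantile normalization, and a gene was called when limma's adjusted p over all 11052 genes was under 0.05. The mean raw signal of an array was 255 to 287 at 15 h and 222 to 259 at 24 h, against 325 to 405 in vehicle controls, so the scaling between arrays matters to every direction given. Summed raw signals of the proteasome genes were 43980 to 53590 at 24 h, against 74070 to 87260 in controls. Proteasome genes are bright: their median percentile among tested genes in controls was 89.0, and 32 of 40 lay above the median gene. The 15 h array of replicate 1 stood apart. For 24 of 40 proteasome genes it lay more than 0.25 log2 units from the mean of the other 15 h arrays, so 15 h results are given with and without it where it matters. Most neuron markers were lower at the later times. At 15 h 6 of 8 tested markers were called lower and 1, Snap25, higher, and at 24 h 7 were lower. Under median scaling 1 was called higher at each time, and Nefm was higher at 24 h than at 15 h. Summed normalized signals of neuron markers were 1529 to 1608 at 24 h against 4966 to 6316 in controls. Beside these and the next marker counts, 0.434% of all genes were called at 8 h, 50.1% at 15 h and 54.8% at 24 h. Rbfox3, Nefl and Gad2 had no tested probe. Astrocyte markers summed to 25550 to 26860 at 24 h against 12600 to 14440 in controls (5 of 6 tested markers higher, 1 lower), and microglial markers to 3716 to 3925 against 1190 to 1353 (6 of 8 tested markers higher). Fibroblast markers summed to 20680 to 22400 at 24 h against 4352 to 5293 (3 of 4 tested markers higher, 1 lower), with Col1a1, Col1a2, Col3a1 and Lum not tested. Markers of the oligodendrocyte lineage summed to 4270 to 4713 at 24 h against 11470 to 12530 in controls (6 of 8 tested markers lower), and 1 of the 8, Gpr17, was called lower at 8 h, where the sums were 7126 to 9737. The part of these shifts in the values below was not tested, and fewer cells of a type and less RNA per cell cannot be told apart here.

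At 8 h, 0 of 40 proteasome genes were called with limma, against 0.434% of all genes. Psmd10 and Psme2, at -0.24 and -0.37 log2 units, had unadjusted p-values under 0.05. With limma's array weights 9 of 40 proteasome genes were called at 8 h, against 24% of all genes, and with neqc normalization 0. Leaving out the 8 h array of replicate 2 gave 3 calls of 40, Psma1, Psmd5 and Psme2, all lower, against 1.62% of all genes.

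At 15 h against control, 7 of 40 proteasome genes (17.5%) were called, against 50.1% of all genes. Psmd4, Psmd12, Psme4 and Psmf1 were higher and Psmd3, Psme1 and Psme3 lower, but under median scaling 0 were called higher and 26 lower. Without 15 h replicate 1, 6 of 40 genes were called, against 48.3% of all genes: Psmb9, Psmd4, Psme4 and Psmf1 higher and Psmb10 and Psme3 lower. At 24 h, 10 of 40 (25.0%) were called, against 54.8% of all genes. Psma3, Psmc5, Psmd4, Psmd11, Psmd14, Psme4 and Psmf1 were higher and Psmb1, Psmb10 and Psme1 lower, while under median scaling Psmd11 alone was called higher and 29 genes lower. The share of all genes called under median scaling was 54.0% at 15 h and 62.3% at 24 h. The median change of the 40 genes was -0.04 at 15 h and 0.06 at 24 h, against 0.02 and 0.01 for all genes. Their median absolute change was 0.18 at 15 h and 0.17 at 24 h, against 0.26 and 0.29 for all genes. Groups did not overlap for 8 of the 40 genes at 15 h, against 50.1% of all genes, and for 17 at 24 h, against 60.9% of all genes.

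Under median scaling the median of all genes itself moved by -0.16 at 15 h and -0.25 at 24 h. Relative to that shift the proteasome median was -0.33 at 15 h and -0.28 at 24 h. The reference here is all tested genes and not genes as bright as the proteasome genes. Median raw signals of arrays were 50.3 to 53.5 at 24 h against 55.9 to 65.9 in controls, a smaller fall than that of the mean signals above. The part of brightness in the proteasome median was not tested. With no scaling between arrays the median of all genes was -0.25 at 15 h and -0.39 at 24 h. The proteasome median relative to it, -0.33 and -0.28, had to be the same. Median scaling only shifts each array by 1 constant, so this is not a second result. In the authors' normalized values, a ratio to medians, the proteasome median was -0.30 and -0.24 relative to all genes. Calls that kept their direction and threshold under quantile, neqc, median, authors' and no scaling were Psmd3, Psme1 and Psme3 at 15 h and Psmb1, Psmb10 and Psme1 at 24 h, all lower. With no scaling 0 proteasome genes were called higher at either time, so only lower calls could be kept. Every call of a higher level at 15 h turned negative under at least 1 of these scalings, and so did every such call at 24 h except Psmd11. The plot of changes by class shows both scalings side by side.

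**Figure D1:**
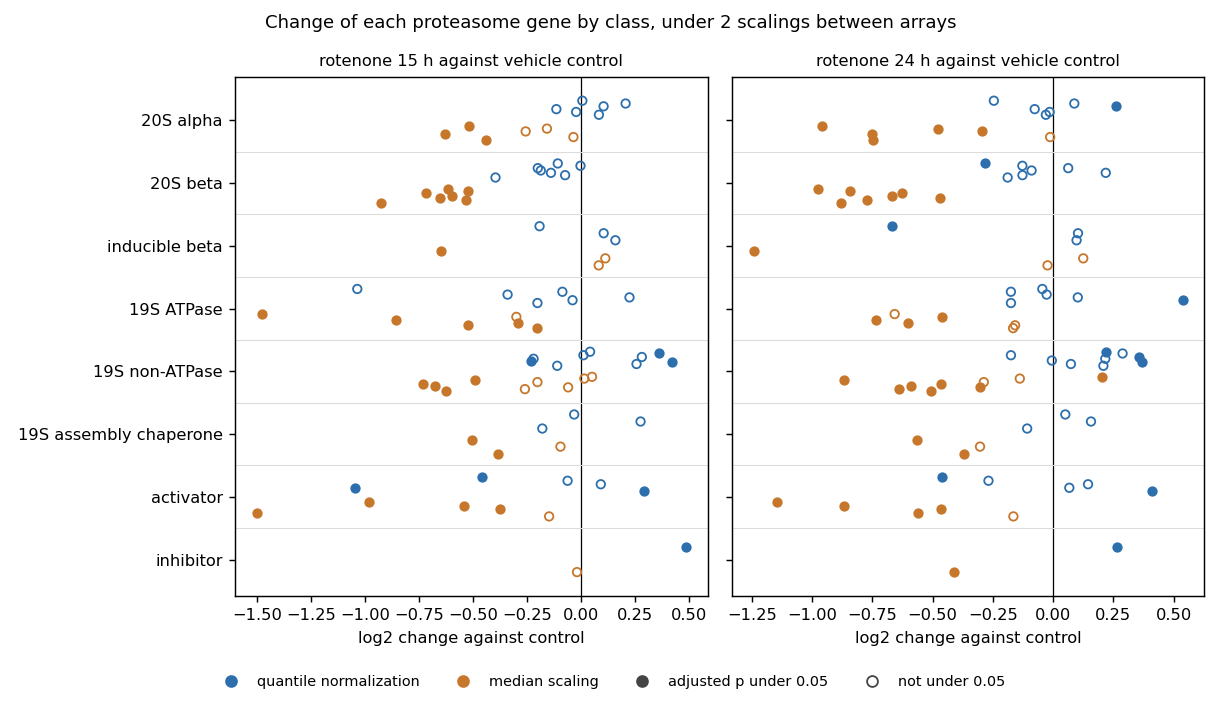
Log2 change of each tested proteasome gene against vehicle control at 15 h (left) and 24 h (right), 1 point per gene, by class from top to bottom, with quantile normalization in blue and median scaling in orange and filled points for adjusted p under 0.05. With quantile normalization 7 genes are filled at 15 h and 10 at 24 h on both sides of 0, and with median scaling nearly all points lie below 0, with 26 and 30 filled.

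The alpha ring of the 20S core held a single call under quantile normalization. Of 6 tested genes, 0 were called at 15 h (1 at unadjusted p under 0.05, and 0 with neqc) and Psma3 was called at 24 h. The shares of all genes called were 50.1% and 54.8%. Psma3 measured 12.57, 12.54 and 12.70 at 24 h, against 12.30, 12.37, 12.40 and 12.31 in controls. All 3 arrays at 24 h lay above all controls, a difference of 0.26 ± 0.09 (SE, adjusted p = 0.024) that was -0.30 under median scaling (adjusted p = 0.040). The call was lost without control replicate 1 or 24 h replicate 3. At 15 h Psma3 measured 12.70 in replicate 1 and 12.34 and 12.31 in the others. The other alpha genes differed from control by -0.25 (Psma1) to 0.09 (Psma2) at 24 h, and all 6 lay below 0 under median scaling.

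Among the 7 constitutive beta genes, all changes at 15 h were below 0, ranging to -0.40 for Psmb7. Of these 0 were called (2 at unadjusted p under 0.05), against 50.1% of all genes. Psmb7 measured 10.57, 11.54 and 11.57 at 15 h, against 11.62, 11.71, 11.50 and 11.66 in controls. Replicate 1 alone was low, and without it the change was -0.07 (adjusted p = 0.61). Psmb1 was called lower at 24 h, with 10.39, 10.35 and 10.30 against 10.64, 10.78, 10.45 and 10.66 in controls. All 3 arrays lay below all controls (-0.28 ± 0.10, adjusted p = 0.032), and under median scaling the difference was -0.98 (adjusted p = 6.9e-06). The Psmb1 call did not survive leaving out control replicate 1, 2 or 4 or any of the 24 h arrays, with changes of -0.34 to -0.23. Under median scaling all 7 constitutive beta genes were called lower at both times, against 54.0% and 62.3% of all genes called in either direction. Psmb2 had 2 probes that disagreed at 24 h, with -0.13 for the brighter and 0.41 for the other (adjusted p = 0.0034).

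Of the 3 inducible catalytic genes, Psmb10 was called against control, at 24 h, where 54.8% of all genes were called. Psmb10, which replaces Psmb7 in the inducible form, measured 8.35, 8.43 and 8.45 at 24 h, against 9.15, 9.07, 8.76 and 9.33 in controls. Every 24 h array lay below every control (-0.67 ± 0.16, 0.630-fold, adjusted p = 0.0025). The call held without each array in turn, with changes of -0.77 to -0.58. It also held under all 5 scalings, of which some favour lower calls, as given above. A second Psmb10 probe gave -0.70 at 24 h (adjusted p = 1.8e-04) and -0.43 at 15 h (adjusted p = 0.010).

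At 15 h Psmb10 measured 9.37, 8.60 and 8.68, so replicate 1 lay above all controls and the other arrays below all controls. With all 3 arrays the change was -0.19 (adjusted p = 0.35), and without replicate 1 it was -0.44 (adjusted p = 0.0096). At 8 h the values were 8.90, 9.09 and 8.95, within the control range. Psmb7, its constitutive counterpart, had 11.37, 11.42 and 11.52 at 24 h and was not called (-0.19, adjusted p = 0.41).

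Psmb9 measured 6.63, 6.54, 6.38 and 6.68 in controls, 6.44, 6.28 and 6.42 at 8 h, 6.48, 6.87 and 6.81 at 15 h and 6.54, 6.69 and 6.74 at 24 h. The 15 h arrays all lay above the 8 h arrays (0.34 ± 0.10, adjusted p = 0.012) but overlapped controls (0.16, adjusted p = 0.19). The difference from 8 h was 0.24 with no scaling (adjusted p = 0.095), and its call was lost without 8 h replicate 2 or 15 h replicate 2. Without 15 h replicate 1 the difference from control was 0.28 (adjusted p = 0.019). Psmb6, its constitutive counterpart, was not called in any comparison, and its changes against control lay between -0.13 and -0.04.

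Psmb8 was not well above background on any control or 8 h array, on 1 of 3 arrays at 15 h and on 2 of 3 at 24 h. Its measured levels were 6.26, 6.25 and 6.21 at 24 h, against 6.12, 6.10, 6.15 and 6.19 in controls, and the difference was not called (adjusted p = 0.15). Psmb8 passed the detection filter only through 15 h and 24 h arrays, so no change is taken from it. Psmb5, its constitutive counterpart, measured 10.15, 10.25 and 10.28 at 24 h, against 9.72, 9.90 and 9.97 at 15 h and 9.98, 10.06, 9.84 and 10.14 in controls. The 24 h arrays lay above all 15 h arrays (0.36 ± 0.12, adjusted p = 0.042), a call that was lost without 15 h replicate 1 (0.29, adjusted p = 0.091) and under median scaling (0.18, adjusted p = 0.49), and that held in 5 of 13 fits that left out 1 array. Against control the 24 h change of Psmb5 was 0.22 (adjusted p = 0.11). The plot of the catalytic genes shows the single array that sets the 15 h spread of Psmb7 and Psmb10.

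**Figure D2:**
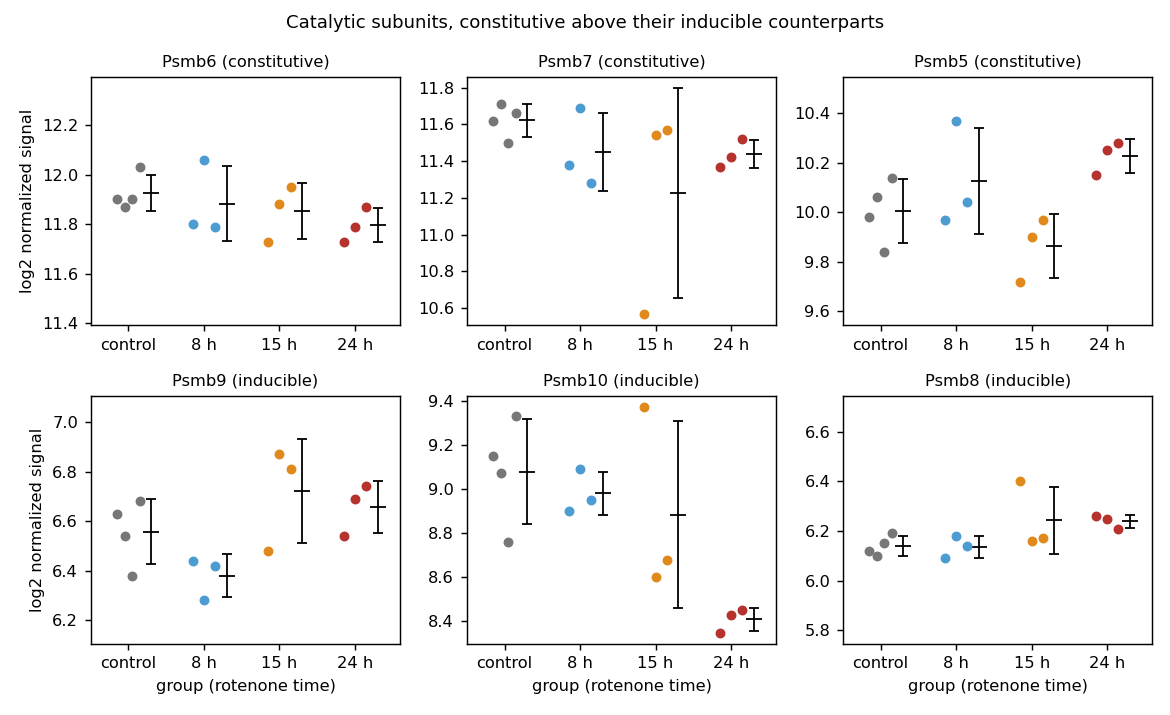
Log2 normalized signal (vertical axis) of the constitutive catalytic genes Psmb6, Psmb7 and Psmb5 (top) and their inducible counterparts Psmb9, Psmb10 and Psmb8 (bottom), 1 point per array, in control, 8 h, 15 h and 24 h groups, with black bars for mean and SD. Psmb10 at 24 h (8.35 to 8.45) lies below all controls, and at 15 h 1 array of Psmb7 and 1 of Psmb10 lie far from their group.

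Of the 6 ATPase genes of the 19S ring, Psmc5 was called at 24 h and the rest were not, against 54.8% of all genes. Psmc5 measured 11.15, 11.22 and 11.34 at 24 h, against 10.72, 10.70, 10.74 and 10.64 in controls. All 3 values lay above every other array of the series (0.54 ± 0.09, 1.45-fold, adjusted p = 1.1e-04), but under median scaling the change was -0.16 (adjusted p = 0.31). At 15 h Psmc5 measured 10.82, 10.57 and 10.59, so 24 h also exceeded 15 h, by 0.58 ± 0.10 (adjusted p = 4.9e-04) and by 0.37 under median scaling (adjusted p = 0.081). A second Psmc5 probe gave 0.47 against control (adjusted p = 0.088).

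Psmc1 was the most variable member. It measured 8.84, 8.70, 8.69 and 9.65 in controls, 6.85, 9.12 and 8.86 at 8 h, 8.62, 6.47 and 8.72 at 15 h and 8.82, 9.03 and 8.94 at 24 h. A single array was low at each of 8 h and 15 h, and 1 control was high. Its mean change at 15 h, -1.03, was not called (adjusted p = 0.11). Psmc3 had -0.34 at 15 h (adjusted p = 0.052) and -0.11 without replicate 1 (adjusted p = 0.30). Psmc6 was not well above background on any 15 h array, and its difference from control was not called (adjusted p = 0.054). It would not have passed the detection filter without its control arrays, so no change is taken from it.

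Of the 9 non-ATPase genes of the 19S particle, 3 were called at 15 h and 3 at 24 h against control, against 50.1% and 54.8% of all genes. Psmd4, a receptor for ubiquitin chains, measured 12.10, 11.76 and 11.79 at 15 h and 11.92, 11.80 and 11.77 at 24 h, against 11.44, 11.37, 11.46 and 11.57 in controls. Both later groups lay wholly above the controls, and 8 h (11.52 on each array) lay within them. The change was 0.42 ± 0.09 at 15 h (adjusted p = 0.0011) and 0.37 ± 0.09 at 24 h (adjusted p = 0.0026), while under median scaling it was -0.06 (adjusted p = 0.66) and -0.30 (adjusted p = 0.020). Both calls held without each array in turn.

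Psmd12, a lid subunit, measured 8.06, 7.82 and 7.53 at 15 h, against 7.35, 7.26 and 7.44 at 8 h and 7.54, 7.53, 7.43 and 7.28 in controls. The 15 h arrays overlapped the controls and not the 8 h arrays. The change against control was 0.36 ± 0.13 (adjusted p = 0.033), 0.02 under median scaling and -0.07 with no scaling, and it was 0.23 without 15 h replicate 1 (adjusted p = 0.16). The call was also lost without control replicate 3 or 4 or 15 h replicate 2.

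Psmd14, the deubiquitinase that removes chains from substrates, measured 9.34, 9.31 and 9.55 at 24 h, against 9.19, 9.0, 9.03 and 8.95 in controls. The groups did not overlap (0.36 ± 0.13, adjusted p = 0.031), and under median scaling the change was -0.29 (adjusted p = 0.10). Leaving out control replicate 2, 3 or 4 or 24 h replicate 1 or 3 removed the call, with changes of 0.28 to 0.41.

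Psmd11, a lid subunit, was dim and above background on 8 of 13 arrays. It measured 6.27, 6.33 and 6.65 at 24 h, against 6.24, 6.21, 6.22 and 6.10 in controls. The difference was 0.22 ± 0.08 (adjusted p = 0.032) and 0.20 under median scaling (adjusted p = 0.022), but 0.07 with no scaling (adjusted p = 0.47), and without 24 h replicate 3 it was 0.10 and not called. Leaving out control replicate 2 or 4 also removed the call.

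Psmd3, a lid subunit, went the other way at 15 h. It measured 11.76, 11.94 and 11.97 at 15 h, against 12.21, 12.17 and 12.27 at 8 h and 12.17, 12.05, 12.17 and 12.08 in controls. All 15 h arrays were below all 8 h and control arrays. The change was -0.23 ± 0.08 against control (adjusted p = 0.030) and -0.33 ± 0.09 against 8 h (adjusted p = 0.0060). Against control it was -0.17 without 15 h replicate 1 (adjusted p = 0.078), and the call was also lost without control replicate 1 or 3. At 24 h Psmd3 measured 12.19, 12.19 and 11.96 and did not differ detectably from control (-0.01, adjusted p = 0.96).

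Psmd2, the scaffold of the 19S base, measured 9.56, 9.98 and 9.91 at 15 h, against 10.26, 10.11 and 10.29 at 8 h. At 24 h it measured 10.28, 10.20 and 10.27, and controls had 10.05, 9.93, 10.18 and 9.98. The 15 h arrays lay below both the 8 h and the 24 h arrays. The difference was -0.41 ± 0.12 for 15 h against 8 h (adjusted p = 0.0082) and 0.44 ± 0.12 for 24 h against 15 h (adjusted p = 0.013). The second step was 0.26 under median scaling (adjusted p = 0.32). A second Psmd2 probe gave 0.03 and -0.12 for the same steps and was not called.

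Psmd8, a lid subunit, had 10.79, 10.78 and 10.84 at 24 h, against 10.34, 10.58 and 10.53 at 15 h. The groups did not overlap (0.32 ± 0.10, adjusted p = 0.026), and the step was 0.12 under median scaling (adjusted p = 0.65). Without any 1 of the 24 h arrays the call was lost. Psmd7 and Psmd13 were not called in any comparison.

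**Figure D3:**
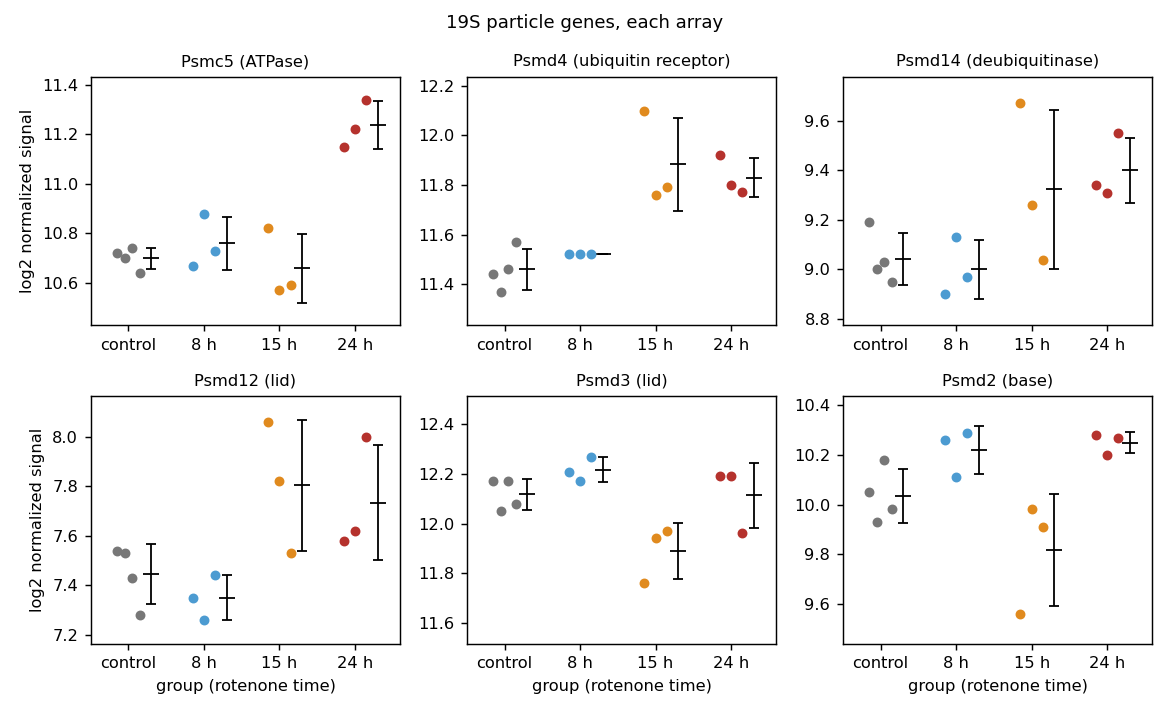
Log2 normalized signal (vertical axis) of 6 genes of the 19S particle, 1 point per array, in control, 8 h, 15 h and 24 h groups, with black bars for mean and SD. Psmc5 is above all controls at 24 h (11.15 to 11.34) and Psmd4 at 15 h and 24 h (11.76 to 12.10), although both differences are below 0 under median scaling, and Psmd3 and Psmd2 are lowest at 15 h.

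The assembly chaperones of the 19S base are Psmd5, Psmd9 and Psmd10. None was called against control at any time (Psmd10 at 8 h had an unadjusted p under 0.05, and neqc called 0 at 8 h). The shares of all genes called were 0.434% at 8 h, 50.1% at 15 h and 54.8% at 24 h. Psmd5 measured 7.97, 7.99 and 7.82 at 15 h, against 7.08, 7.85 and 7.34 at 8 h. The groups overlapped through 8 h replicate 2 (0.50 ± 0.15, adjusted p = 0.0091), the difference was 0.16 under median scaling (adjusted p = 0.40), and the call was lost without 8 h replicate 1. Psmd10 had 3 probes with changes of -0.12 to 0.11 at 15 h and -0.01 to 0.14 at 24 h.

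The chaperones of the 20S core stand on this array under older names, and accessions placed Psmg1 under Dscr2, Psmg2 under Tnfsf5ip1 and Psmg3 under an uncharacterised name, outside the members. Psmg2, which with Psmg1 helps to build the alpha ring, measured 9.70, 9.41 and 9.34 at 15 h and 9.54, 9.71 and 9.66 at 24 h, against 8.98, 9.02, 8.91 and 9.07 in controls. Both groups lay wholly above the controls. The change was 0.49 ± 0.11 at 15 h (adjusted p = 0.0012) and 0.65 ± 0.11 at 24 h (adjusted p = 8.5e-05), and under median scaling it was 0.02 and 0.00, with -0.07 and -0.13 under no scaling. Psmg1 differed from control by -0.06 at 15 h and 0.07 at 24 h and Psmg3 by -0.22 at 15 h, and neither was called at 15 h or 24 h. Psmd6, a lid gene also listed under another name, was not called (-0.13 and -0.03). Psmb11, the catalytic subunit known from the thymus cortex, was above background on 4 of 4 control arrays and on 0 arrays at 15 h and 24 h. It measured near background throughout, 6.27 to 6.50 in controls and 6.07 to 6.20 at 15 h and 24 h, the later levels being only bounds. Psmb11 was called lower at 15 h, at 24 h and at 15 h against 8 h. It passed the detection filter only through control and 8 h arrays, so these calls are not taken as a change.

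The caps other than 19S gave the largest difference among the members. Psme3, which encodes PA28 gamma, measured 7.86, 8.17 and 8.07 at 15 h, against 9.09, 9.16 and 9.10 at 8 h and 9.01, 9.18, 9.17 and 8.96 in controls. All 15 h arrays lay below all 10 other arrays of the series. At 24 h the values were 9.08, 9.08 and 9.29, within or just above the control range.

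The 15 h level of Psme3 was 0.484 times that of controls (-1.05 ± 0.10, adjusted p = 7.1e-07) and 0.472 times that at 8 h (-1.08 ± 0.11, adjusted p = 9.3e-07). The 24 h level was 2.16-fold that at 15 h (1.11 ± 0.11, adjusted p = 3.8e-06). All 3 differences held without each array in turn, with ranges of -1.11 to -0.96, -1.15 to -0.995 and 1.03 to 1.18. Under median scaling they were -1.50, -1.54 and 0.94 and remained called. At 24 h against control the change was 0.07 (adjusted p = 0.61) and -0.56 under median scaling, so the return to the control level depends on the scaling. Psme3 was measured by a single probe.

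Psme1, which encodes PA28 alpha, measured 9.42, 10.11 and 10.31 at 15 h and 9.92, 9.92 and 10.00 at 24 h, against 10.38, 10.39, 10.14 and 10.71 in controls. The 24 h arrays lay below all controls, and the 15 h arrays overlapped them. The change was -0.46 ± 0.17 at both times (adjusted p = 0.035 at 15 h and 0.031 at 24 h), and under median scaling it was -0.98 and -1.15. A second Psme1 probe gave -0.41 (adjusted p = 0.044) and -0.48 (adjusted p = 0.018). At 15 h the change was -0.19 without replicate 1 (adjusted p = 0.22), and the call was also lost without control replicate 1, 2 or 4. At 24 h it was lost without control replicate 1, 2 or 4 or any 24 h array, with changes of -0.55 to -0.36.

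Psme2, which encodes PA28 beta and forms a ring with Psme1, measured 8.62, 8.63 and 8.80 at 24 h, against 8.99, 9.02, 8.68 and 9.10 in controls. The groups overlapped and the difference was not called (-0.27, adjusted p = 0.19). The probe of Psme2b, a near-identical copy of Psme2, cannot be taken as specific to either gene, and it differed by 0.14 at 24 h (adjusted p = 0.31).

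Psme4, which encodes PA200, measured 8.56, 8.65 and 8.61 at 15 h and 8.67, 8.69 and 8.79 at 24 h, against 8.30, 8.22, 8.46 and 8.27 in controls. Both groups lay above all controls. The change was 0.29 ± 0.09 at 15 h (adjusted p = 0.016) and 0.41 ± 0.09 at 24 h (adjusted p = 0.0014), and under median scaling it was -0.15 and -0.16. The 15 h call was lost without 15 h replicate 2. A second, dimmer Psme4 probe gave -0.01 and -0.05 and was not called.

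Psmf1, which encodes PI31, measured 10.40, 10.15 and 10.11 at 15 h and 10.05, 10.00 and 9.94 at 24 h, against 9.77, 9.81 and 9.76 at 8 h and 9.67, 9.57, 9.89 and 9.81 in controls. The 15 h and 24 h arrays lay above all 8 h and control arrays. The change against control was 0.49 ± 0.10 at 15 h (1.40-fold, adjusted p = 7.7e-04) and 0.26 ± 0.10 at 24 h (adjusted p = 0.036), but -0.02 and -0.41 under median scaling. The 15 h call held without each array in turn. The 24 h call was lost without control replicate 1 or 2 or any 24 h array.

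**Figure D4:**
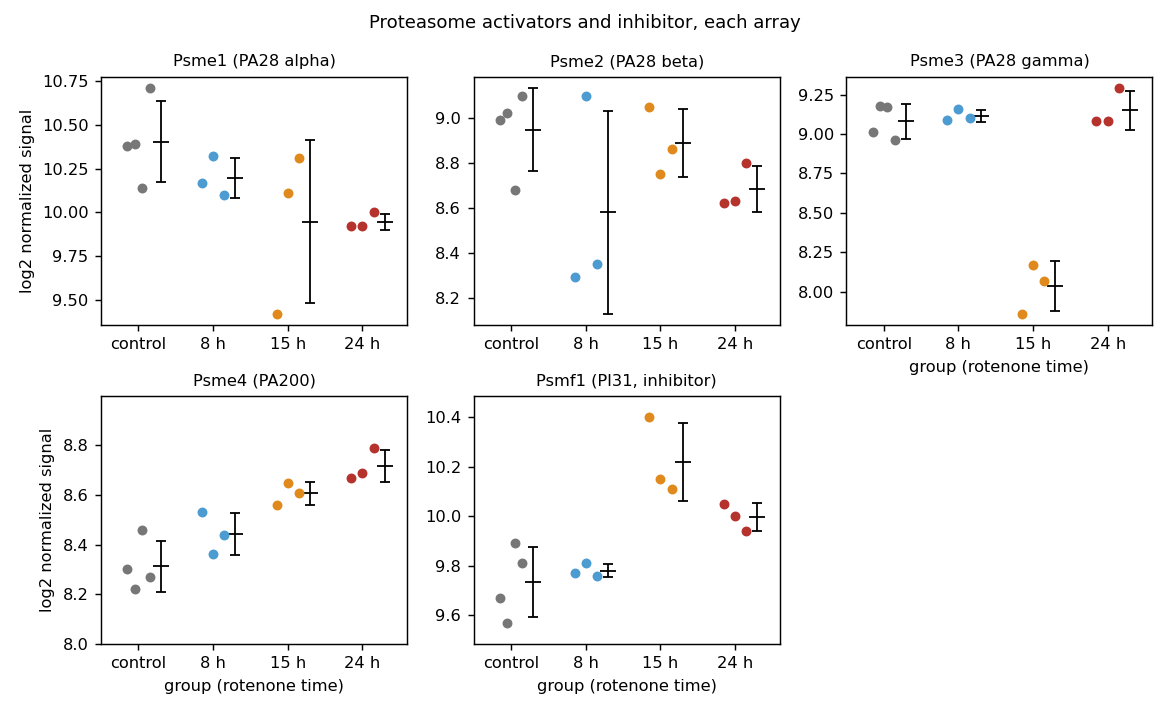
Log2 normalized signal (vertical axis) of the activator genes Psme1 to Psme4 and of Psmf1, 1 point per array, in control, 8 h, 15 h and 24 h groups, with black bars for mean and SD. Psme3 is low on all 3 arrays at 15 h (7.86 to 8.17) and near the control level at 24 h, a level that lies 0.56 below control under median scaling, and Psme4 and Psmf1 are above all controls at 15 h and 24 h, which median scaling turns below 0.

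Between times, 8 of 40 proteasome genes were called at 15 h against 8 h, where 51.1% of all genes were called. Psmb9, Psmd4, Psmd12, Psmd5 and Psmf1 were higher and Psmd2, Psmd3 and Psme3 lower, with 1 higher and 22 lower under median scaling (54.2% of all genes called). At 24 h against 15 h, 5 of 40 (12.5%) were called, against 22.4% of all genes. Psmb5, Psmc5, Psmd2, Psmd8 and Psme3 were higher and 0 genes were lower (Psmb10 at unadjusted p under 0.05, with -0.48 and an adjusted p of 0.063), and under median scaling 1 was higher and 3 were lower (16.4% of all genes called). Without 15 h replicate 1, Psmb5 left and Psma3 (0.28) and Psmd13 (-0.34) joined the calls of the later step, where 24.7% of all genes were then called. Psmc3ip, which is no proteasome gene, measured 9.04, 8.72 and 8.71 at 15 h, against 8.20, 8.13, 8.31 and 8.20 in controls (0.62 ± 0.10, adjusted p = 1.3e-04), and 0.18 under median scaling.

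Of the genes for transcription of proteasome genes, the factors Nfe2l1, Nfe2l2, Hsf1, Mafg and Maff and the adaptor Keap1 were tested. Most were higher under quantile normalization. Of 6 tested, 4 were called at 15 h, all higher, against 50.1% of all genes called in either direction. At 24 h 5 were higher and 1, Keap1, lower, against 54.8% of all genes called. Under median scaling 2 were higher and 1 lower at each time. Nfe2l1, which activates proteasome genes when the proteasome is impaired, measured 10.70, 11.10 and 11.12 at 15 h and 11.40, 11.37 and 11.33 at 24 h, against 10.43, 10.40, 10.34 and 10.45 in controls. Both groups lay above all controls, with changes of 0.57 ± 0.10 (adjusted p = 2.3e-04) and 0.96 ± 0.10 (adjusted p = 7.9e-07), which under median scaling were 0.04 (adjusted p = 0.81) and 0.26 (adjusted p = 0.11) and with no scaling -0.04 and 0.13.

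Nfe2l2, the related factor of the oxidative stress response, measured 8.22, 8.12 and 8.15 at 15 h and 8.25, 8.57 and 8.15 at 24 h, against 6.35, 6.25, 6.62 and 6.42 in controls. Every array at the later times lay above every control. The change was 1.75 ± 0.12 at 15 h (adjusted p = 1.7e-08) and 1.91 ± 0.12 at 24 h (3.77-fold, adjusted p = 2.0e-09), and under median scaling it was 1.53 and 1.56 and remained called.

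Maff, a small Maf partner of both factors, differed by 0.72 at 15 h and 1.69 at 24 h (1.19 at 24 h under median scaling, adjusted p = 2.1e-06). Mafg, another small Maf, differed by 0.72 at 15 h (0.40 without replicate 1) and 0.90 at 24 h and was not called under median scaling (0.24 and 0.20). Hsf1, the heat shock factor, was called at 24 h (0.67, adjusted p = 0.0064), with -0.03 under median scaling. Keap1, the adaptor that marks Nfe2l2 for degradation by the proteasome, was lower at 24 h (-0.26, adjusted p = 0.030) and by more under median scaling (-0.91), but the call was lost without control replicate 1, 2 or 4 or 24 h replicate 1 or 3.

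Of 11 tested genes for ubiquitin and its activation, 3 were called at 15 h, all lower, against 50.1% of all genes called in either direction. The same 3 were lower at 24 h and the conjugating enzyme gene Cdc34 was higher (0.53, and -0.01 under median scaling), against 54.8% of all genes called. These shares are no higher than those of all genes. Uba1, the main ubiquitin-activating enzyme, measured 9.73, 10.63 and 10.70 at 15 h and 10.50, 10.53 and 10.44 at 24 h, against 11.40, 11.38, 11.38 and 11.19 in controls. Both groups lay below all controls, with changes of -0.98 ± 0.17 (adjusted p = 1.5e-04) and -0.85 ± 0.17 (adjusted p = 4.6e-04).

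Ube2n, the conjugating enzyme for Lys63-linked chains, measured 9.39, 9.58 and 9.60 at 15 h and 9.58, 9.54 and 9.46 at 24 h, against 11.03, 11.10, 10.79 and 10.83 in controls. All later arrays lay below all controls, with a change of -1.41 ± 0.12 at both times (adjusted p = 1.0e-07 and 4.2e-08). Ube2d3 was lower, with changes of -0.64 and -0.91, and under median scaling all 3 enzymes stayed called lower at both times.

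**Figure D5:**
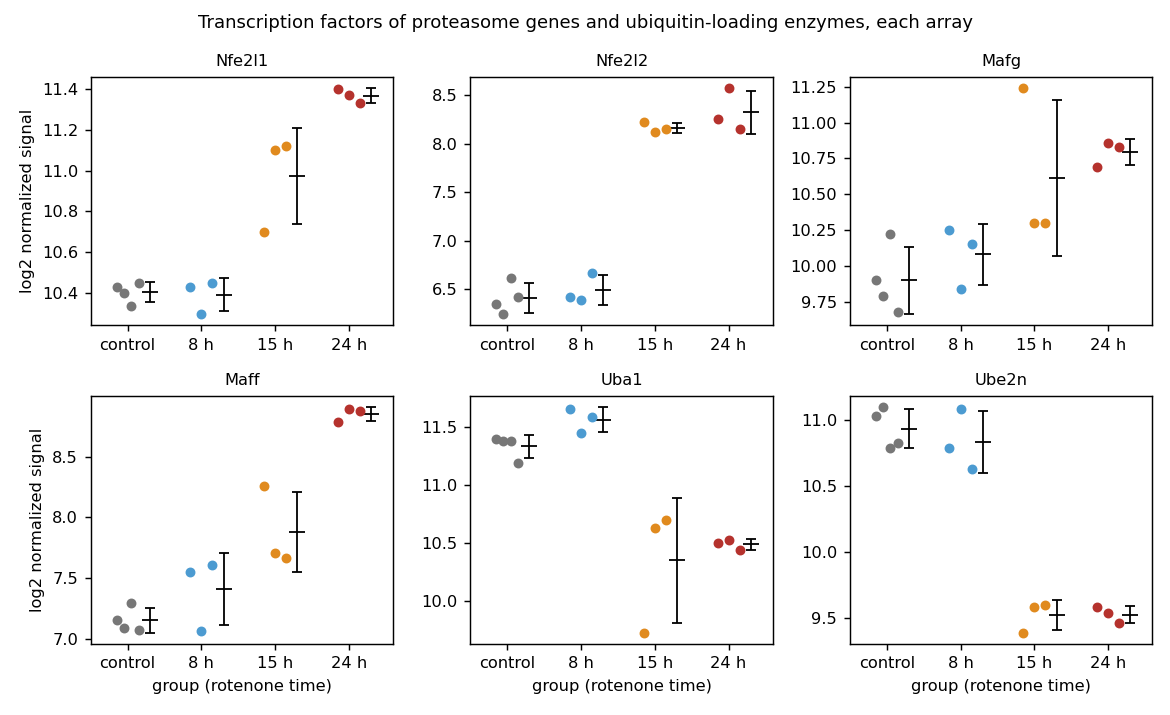
Log2 normalized signal (vertical axis) of Nfe2l1, Nfe2l2, Mafg, Maff, Uba1 and Ube2n, 1 point per array, in control, 8 h, 15 h and 24 h groups, with black bars for mean and SD. Nfe2l2 lies at 8.12 to 8.57 at 15 h and 24 h against 6.25 to 6.62 in controls, Ube2n lies below all controls, and the higher values of Nfe2l1 and Mafg are not called under median scaling.

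Of 9 tested genes for proteasome assembly and associated factors, 1 was higher and 3 lower at 15 h, and 2 higher and 1 lower at 24 h, against 50.1% and 54.8% of all genes called. Ube3c, a ligase that rides on the proteasome, was lower at both times (-0.75 and -0.63), and the 19S-bound ubiquitin receptor Adrm1 (-0.44, and -0.23 without 15 h replicate 1) and the deubiquitinase Uchl5 (-0.33) were lower at 15 h. These falls held under median scaling, but the call of Uchl5 was lost without control replicate 2 or 3 or 15 h replicate 2 or 3. Txnl1, a thioredoxin-like protein of the 19S particle, was higher at 24 h (0.73, adjusted p = 6.6e-05), with 0.20 under median scaling (adjusted p = 0.21), and Ecpas, a proteasome adaptor, was higher by 0.46, with -0.20 under median scaling. Sem1, a small lid subunit, was higher at 15 h (0.39), with 0.03 under median scaling. Pomp, which matures the core, was not called (-0.14 and -0.11). Among 9 shuttle and unfoldase genes, 1 was higher and 3 lower at 15 h, and 2 higher and 1 lower at 24 h, again against 50.1% and 54.8% of all genes called. The ATPase Vcp, which unfolds ubiquitinated proteins, was not called (0.17 at 15 h and -0.0039 at 24 h), but under median scaling it was called lower at both times (-0.32 and -0.67).

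Genes of antigen presentation, which are known to be induced with Psmb8, Psmb9, Psmb10, Psme1 and Psme2, were mostly higher under quantile normalization. Of 6 tested, 5 were called higher at 15 h and 5 at 24 h, against 50.1% and 54.8% of all genes called in either direction. Under median scaling 3 were higher at 15 h and 2 higher and 1 lower at 24 h, against 54.0% and 62.3% of all genes. B2m, the light chain of class I molecules, measured 10.72, 10.32 and 10.44 at 15 h and 10.78, 10.96 and 10.90 at 24 h, against 8.89, 8.90, 8.91 and 9.32 in controls. Every array at the later times lay above all controls (1.49 ± 0.14 and 1.88 ± 0.14, adjusted p = 3.2e-07 and 1.2e-08), and B2m stayed called under median scaling (1.02 and 1.18). Tap2, which carries peptides into the endoplasmic reticulum, was higher by 0.68 and 0.62 (0.36 and 0.22 under median scaling, with the second not called). Psmb10 and Psme1 were lower at 24 h in the same arrays. Microglial and astrocyte markers were higher in those arrays too, with the sums given above, and their part in these values was not tested.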

How the data were processed

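RNA of 13 samples (4 vehicle control and 3 each at 8 h, 15 h and 24 h of rotenone) had been hybridised to Illumina mouse bead arrays. The authors deposited unscaled probe signals, used here as intensity values, and, per the file headers, BeadStudio version 3.2.6 gene profiles with detection scores. Their normalized table was found to be a ratio of each signal to its array's median and then to the control median, within a relative difference of 3.75e-07, as deposited by the authors. Detection p-values per probe, a fraction, were read from the deposited gene profile array with identical signals. That array carried another replicate number of the same group than the sample's label for every sample, so chips were tested under both assignments. In the profiles, 102 columns of values were not used. Whether the deposited signals had background subtracted is unstated in the sources.

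Signals were corrected with normexp (offset 50) and quantile normalized with limma 3.58.1 (R 4.3.3). Probes needed a detection p under 0.05 on at least 3 arrays, and the brightest probe stood for a gene. Of 24613 probes, 20514 were named by accession through RefSeq's gene table, 2557 by the description and 1072 had no name. All 4 groups entered 1 fit with moderated tests and Benjamini-Hochberg adjustment over 11052 genes, for 5 comparisons. Each change of a member called against control under quantile normalization is given as log2 with its SE. Members and gene lists were chosen with earlier results of these data known. Values on arrays are given, in the text or in a plot, for the called gene with the largest rise and fall in each class and time and for further called members. They are also given for the catalytic pairs, Psme1 to Psme4 and the inhibitor, and among the assembly chaperones for Psmd5 and Psmg2. Deviations of same-numbered replicates had correlations of -0.12 to 0.21 (above 0.1 in 5 of 18 pairs), and those of different-numbered replicates -0.26 to 0.20. Replicates were not paired. Because the replicate numbers differ between the deposited sources, these correlations cannot exclude a pairing of samples. The fit was tested on simulated data. Alternatives were other background corrections, scalings, detection filters, probe rules, chips, array weights, groups in the fit, and leaving out each array.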

Additional observations from a re-analysis of the deposited data

Results flagged for a closer look

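A test for a single distant array in the controls, the only group large enough for it, was run on 40 proteasome genes and named 1. Chance alone gives about 1 in 20 groups. It was Psmc1, with 9.65 on 1 control array and 8.69 to 8.84 on the others.

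Differences between time points that passed the test of the difference itself are listed because the change against control is then not the same at both times. For 24 h minus 15 h these were Psmb5 (0.36), Psmc5 (0.58), Psmd2 (0.44), Psmd8 (0.32) and Psme3 (1.11). Of these, Psme3 remained called under median scaling and the others did not. For 15 h minus 8 h they were Psmb9 (0.34), Psmd2 (-0.41), Psmd3 (-0.33), Psmd4 (0.36), Psmd12 (0.46), Psmd5 (0.50), Psme3 (-1.08) and Psmf1 (0.44). Under median scaling Psmd4 was -0.15 and Psmf1 was -0.09 in that step, and the 3 negative differences and that of Psmb9 remained called.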

How the results depend on the processing

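Counts of called proteasome genes changed with the scaling between arrays, with array weights and with which arrays entered. At 15 h against control, where 7 were called, there were 26 with median scaling, 28 with no scaling, 24 in the authors' normalized values, 17 with array weights and 12 with the matched chip as a block, against 54.0%, 54.3%, 53.6%, 64.7% and 51.7% of all genes. At 24 h, where 10 were called, these gave 30, 32, 29 and 22, and fitting only the groups compared gave 17, against 62.3%, 67.5%, 60.9%, 67.1% and 60.4% of all genes. At 15 h against 8 h, where 8 were called, median scaling gave 23, no scaling 22, the authors' values 24 and array weights 19, against 54.2%, 52.2%, 54.8% and 64.7% of all genes. At 24 h against 15 h, where 5 were called, array weights gave 16, no scaling 2 and no detection filter 3, against 43.5%, 15.1% and 20.6% of all genes. At 8 h array weights gave 9, against 24% of all genes. Chips taken alone have 1 or 2 arrays in most groups, a lone array being assumed to vary like the others. With the labels' chip 1 there were 3, 0, 3 and 1 calls at 15 h, at 24 h, at 15 h against 8 h and at 24 h against 15 h, and with the labels' chip 2 there were 1, 4, 2 and 2. Matched chip 1 gave 1, 5, 4 and 2, and matched chip 2 gave 28, 19, 24 and 21, and 8 at 8 h. Leaving out 1 array gave 0 to 3 calls at 8 h, 5 to 14 at 15 h, 5 to 14 at 24 h, 8 to 12 for 15 h against 8 h and 3 to 7 for 24 h against 15 h. The shares of all genes called in these fits were 0.0905% to 1.67%, 44.9% to 51.7%, 48.2% to 61%, 44.8% to 51.8% and 15.4% to 24.7%. With the replicate number as a block (replicate block) the counts at 15 h, at 24 h, at 15 h against 8 h and at 24 h against 15 h were 7, 8, 8 and 5. The shares of all genes were 47.3%, 52.2%, 50.9% and 21.3%. At 8 h the replicate block gave 0 calls of proteasome genes. The cause of these differences was not tested.

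Signs of single genes also turned, for those called and for those called only after the sign turned. Under median scaling the 15 h change was -0.52 for Psma1, -0.44 for Psma7, -0.29 for Psmc4, -0.060 for Psmd4, -0.49 for Psmd13, -0.38 for Psme2b, -0.15 for Psme4 and -0.019 for Psmf1. The 24 h change was -0.48 for Psma2, -0.30 for Psma3, -0.63 for Psmb3, -0.47 for Psmb5 and for Psmd2, -0.60 for Psmc4, -0.16 for Psmc5 and for Psme4, -0.30 for Psmd4, -0.64 for Psmd7, -0.51 for Psmd8, -0.29 for Psmd14, -0.56 for Psmd10 and for Psme3, -0.46 for Psme2b and -0.41 for Psmf1. With no scaling the 15 h change was -0.61 for Psma1, -0.35 for Psma3, -0.53 for Psma7, -0.38 for Psmc4, -0.15 for Psmd4, -0.074 for Psmd12, -0.58 for Psmd13, -0.46 for Psme2b, -0.24 for Psme4 and -0.11 for Psmf1. The 24 h change was -0.61 for Psma2 and for Psmb5, -0.43 for Psma3, -0.76 for Psmb3, -0.74 for Psmc4, -0.29 for Psmc5, -0.60 for Psmd2 and for Psme2b, -0.44 for Psmd4 and for Psmd5, -0.78 for Psmd7, -0.64 for Psmd8, -0.42 for Psmd14, -0.70 for Psmd10 and for Psme3, -0.30 for Psme4 and -0.55 for Psmf1. In the authors' values the 15 h change was -0.42 for Psma7, -0.27 for Psmc4, -0.034 for Psmd4, -0.47 for Psmd13, -0.37 for Psme2b and -0.13 for Psme4. The 24 h change there was -0.37 for Psma2 and for Psmd2, -0.19 for Psma3, -0.53 for Psmb3, -0.38 for Psmb5, -0.50 for Psmc4 and for Psmd10, -0.053 for Psmc5, -0.20 for Psmd4 and for Psmd14, -0.54 for Psmd7, -0.41 for Psmd8, -0.39 for Psme2b, -0.49 for Psme3, -0.084 for Psme4 and -0.32 for Psmf1. On matched chip 2 alone, where replicate 1 is the only 15 h array, the 15 h change was -0.31 for Psma1, 0.26 for Psmb10 and -0.26 for Psmd13. Of the other values of single genes, 3206 kept direction and side of the threshold, 214 gained a call in the same direction and 95 lost one. Signal over background limits Psma5, Psma6, Psmb8, Psmc6 and Psmd11, which were dim on some or all arrays.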
